A study of Danio rerio with 96 samples.

Results

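The rows described here are the faint features of a targeted zebrafish expression panel that had low counts in libraries of single embryos and were seen in most libraries of 20 embryos. They were chosen by their raw counts. A row was taken when its mean over the 96 libraries was below 50 counts, when its median over the 24 single-embryo libraries was below 5 counts with no value of 20 or more there, and when it had at least 5 counts in at least 18 of the 24 libraries of 20 embryos. The rule selected 127 of the 3183 rows of the table, or 3.99%. Another 858 rows had a mean below 50 counts without meeting the other conditions, and 2198 rows had a mean of at least 50 counts. A row is called detected in a library when it has at least 5 counts there, which is the rule's own minimum. With no gene or probe name in the table, members go here by their place in it (row 1 being the first), and neither their function nor the labelled tissue, whole embryo, could be checked against marker genes.

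TempO-Seq measures each target with a pair of detector oligonucleotides that are ligated only when both are annealed side by side on the RNA, so a count belongs to a short stretch of a transcript and not to the whole of it. The libraries of an experiment share a sequencing run, and a target of low abundance receives few reads, so whether it is seen depends on its share of the RNA and on the depth of the library. A pool of embryos gives an average over its embryos, while a single embryo shows its own level, and a transcript made by few embryos or few cells can be near the limit of detection in either. In bulk RNA, fewer cells that express a gene and less RNA per cell cannot be told apart.

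All libraries came from whole zebrafish embryos kept in Petri dishes with 0.1% dimethyl sulfoxide (DMSO), the solvent in which test chemicals are given, for 5 days from 3-4 to 120 hours post fertilization. No group received another chemical. A library held 1 embryo (pool1), 5 embryos (pool5), 10 embryos (pool10) or 20 embryos (pool20), with 24 libraries per size, in 3 RNA extraction batches of 8 libraries, and the series design compares pool sizes for later dose-response work. The 3 batches of pool1, the 3 of pool5, batch 3 of pool10 and batch 3 of pool20 were extracted in December. Batches 1 and 2 of pool10 and of pool20 were extracted in November. The labels tie further differences to these groups. The pool1, pool5 and pool10 libraries of December came from embryos exposed in December and extracted 0 days after the exposure ended, on 17 or 18 December. The pool10 and pool20 libraries of November came from embryos exposed in November, extracted 16 or 17 days after the exposure ended for pool10 and 14 or 15 days after for pool20. The pool20 batch extracted on 15 December came from the November exposure, 36 days after it ended. Each extraction batch also filled 1 column of the library plate, columns 6 to 12 for the December batches of pool1, pool5 and pool10, column 5 for the pool20 batch of 15 December and columns 1 to 4 for the November batches. Extraction month, time from exposure to extraction and plate column therefore cannot be told apart in pool10. Extraction month and exposure month cannot be told apart there either.

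Total counts ran from 3336312 to 6441627 per library. Levels are given as CPM, a count divided by the total of its library on the usual fixed scale. A row with no count in a library could be present at up to 3 counts, which is 0.899 CPM in the smallest library and 0.466 CPM in the largest. Reads carry no molecular identifiers, so limits and intervals cover counting error only. The labels do not say whether libraries came from separate dishes or parents, so the p-values measure the spread between these batches or libraries, which may be technical. Trimmed-mean (TMM) factors, which rescale library totals, were 0.781 for the pool10 batch of December and 1.27 and 1.42 for those of November, and results that move with this choice are given under both scalings.

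The rule used all values of pool1 and pool20, so the following contrast between them is a description. Because all pool1 libraries were extracted in December and 16 of the 24 pool20 libraries in November, a row that was higher in November libraries met the rule more easily, whatever the pool size. The members just inside and just outside each limit were close. Row 1435 had the highest mean among members, 47.65 counts, and no row failed on the mean alone. Row 607 was inside the limit on the pool1 median with 4 counts, and row 1468 was outside it with 6.5 counts. For the highest pool1 count, rows 1435, 1517 and 3123 were inside with 19 counts, and rows 2809, 1237 and 680 were outside with 20 counts. 227 rows failed this condition alone. For the number of pool20 libraries with the row detected, rows 1829, 644 and 327 were inside with 18 libraries, and rows 1094, 1155 and 525 were outside with 17 libraries. 124 rows failed it alone.

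Followed over pool size within 1 extraction month, detection of the 127 rows did not go with pool size in a simple order. Among December libraries, 8 to 76 members were detected per pool1 library, with a median of 16. Pool5 libraries had 12 to 64 detected, with a median of 33.5, and pool10 libraries had 12 to 33, with a median of 30.5. The pool20 batch of 15 December had 69 to 122 detected, with a median of 97. Pool1, pool5 and pool10 overlapped widely in December, and all but 1 of the 24 single embryos had fewer members detected than any library of that pool20 batch. Among November libraries, pool10 had 106 to 127 members detected, with a median of 123.5, and pool20 had 113 to 127, with a median of 122. The name given to these rows, faint features seen mainly in large pools, is met in pool20 by the rule itself. In pool10 it is met in the November libraries and not in the December libraries. No December library of pool10 reached the lowest November library of pool10, at similar depths of 3826634 to 5361803 counts in December and 3825046 to 5577291 counts in November.

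**Figure D1:**
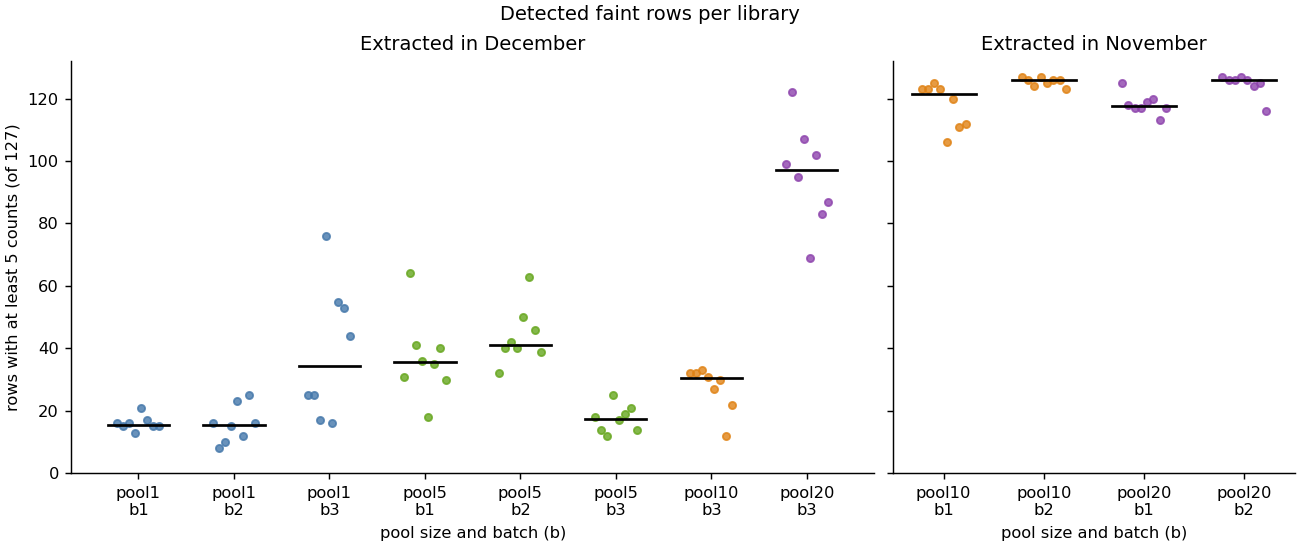
Each point is 1 library, placed by its pool size and extraction batch (x axis) and by how many of the 127 faint rows had at least 5 counts in it (y axis), and each bar is the median of 8 libraries. The pool10 batch of December has a median of 30.5 rows, near those of pool1 and pool5, while the pool10 batches of November have medians of 121.5 and 126.

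The batches showed the same by their medians. The pool1 batches had medians of 15.5, 15.5 and 34.5 detected members and the pool5 batches 35.5, 41 and 17.5, so batches of a pool size differed among themselves and those of pool1 and pool5 overlapped. The pool10 batch of 18 December can be set beside single embryos of the same exposure and extraction day. Its 8 libraries had 32, 32, 33, 31, 27, 30, 12 and 22 members detected, against 25, 25, 17, 76, 16, 55, 53 and 44 in pool1 batch 3. The range of the pool10 libraries, 12 to 33, overlapped that of the single embryos, 16 to 76, and was lower at both ends. In that pair of batches the mean CPM of a member was higher in pool10 than in pool1 for 34 of the 127 members. Pool1 values entered the rule and no matching count over other rows is given, so this is a description. The summed level of the other faint rows was also lower in pool10, with means of 2267 against 2842 CPM. Their median number detected was higher in pool10, 556.5 against 498.5. The embryo with 76 members detected had 199 CPM summed over the members, the highest of all pool1, pool5 and pool10 libraries of December.

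The share detected was lower in December for other rows of the table too, by less. The median share of members detected was 24.0% in pool10 libraries of December and 97.2% in those of November. For the 858 other faint rows it was 64.9% in December and 88.8% in November, and for all 3183 rows 87.4% in December and 96.9% in November. After counts were scaled down to the smallest library, the median number of members detected was 14.5 in pool10 libraries of December and 120.5 in those of November. Over pool size in December the scaled medians were 15 for pool1, 15.5 for pool5, 14.5 for pool10 and 65 for pool20. The scaled medians of pool1, pool5 and pool10 thus lay within 1 member of each other at a minimum of 5 counts. With unscaled counts and a minimum of 3 counts the medians were 18 for pool1, 52.5 for pool5 and 48 for pool10, and the median number of members with a count of 0 was 85.5 in pool1, 42.5 in pool5 and 45 in pool10.

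The summed level of the members showed the same grouping. It averaged 68.5 ± 40.6 CPM in pool1 (SD, n = 24), 81.99 ± 35.5 CPM in pool5 (SD, n = 24), 73.2 ± 12.3 CPM in pool10 of December (SD, n = 8) and 260 ± 91.9 CPM in pool20 of December (SD, n = 8). In November it averaged 1038 ± 488 CPM in pool10 and 658 ± 208 CPM in pool20 (SD, n = 16 each). The December libraries of pool10 were between 47.9 and 87.4 CPM and those of November between 477 and 2092 CPM, with no overlap. In December the mean level of the median member was 0.456 CPM in pool1, 0.501 CPM in pool5 and 0.469 CPM in pool10, against 6.60 CPM in pool10 of November. All 3 December values are below what 3 counts make in the smallest library, so levels this low are averages over libraries in which most members had few or no counts.

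Within November the level did not follow pool size upward and the batches of the 2 extraction days differed. Pool20 averaged 822 ± 169 CPM on 24 November and 493 ± 48.2 CPM on 23 November, and pool10 averaged 1402 ± 414 CPM on 24 November and 675 ± 193 CPM on 23 November (SD, n = 8 each). The mean of a member was lower in pool20 than in pool10 for 123 of the 127 members on 24 November and for 109 on 23 November. It was higher on 24 than on 23 November for 123 members in pool10 and for 123 in pool20. Pool20 values entered the rule, so these counts are descriptions. The summed level of the 858 other faint rows had the same order. It averaged 10305.5 CPM in pool10 and 6907 CPM in pool20 on 24 November, and 6303 CPM and 5147 CPM on 23 November.

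**Figure D2:**
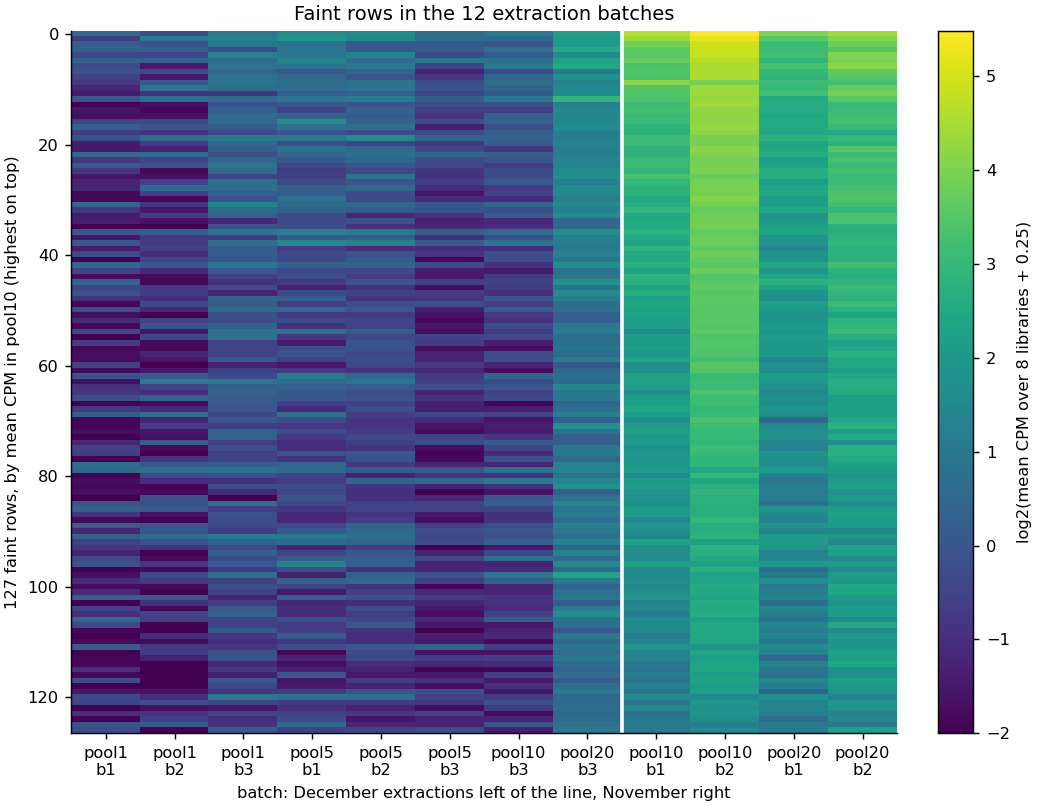
Each line of the map is 1 of the 127 faint rows, ordered by mean CPM in pool10, each column is 1 extraction batch, and the colour is log2 of the mean CPM over 8 libraries plus 0.25. Nearly all rows are dark in the pool1, pool5 and pool10 batches of December, intermediate in the pool20 batch of 15 December and bright in the 4 batches of November, most in pool10 batch 2.

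Whether the members differ by extraction month at a fixed pool size was tested in pool10, whose values entered the rule only through the mean over all 96 libraries. The counts of the 8 libraries of a batch were added, and the 12 batch sums were fitted in 6 groups of pool size and month with the quasi-likelihood test of edgeR and Benjamini-Hochberg adjustment over 3169 rows, and all 127 members entered the test. All 127 had a lower fitted level in December than in November. Their median log2 change was -3.19, with the middle of the members between -4.00 and -2.60 and the range from -6.92 to -0.31. The median was -1.35 over the 844 other faint rows tested, 0.21 over rows with a mean of at least 50 counts and -0.10 over all rows. 20 members, 15.7%, passed an adjusted p of 0.05, all lower in December. Over all rows 165 were called lower, 5.21%, and 332 were called higher, 10.5%, and 0 members were called higher. In either direction 15.7% of all rows were called. Of the 844 other faint rows, 72 were called lower, 8.53%, and 4 higher. At an unadjusted p below 0.05 there were 69 members, all lower in December. Of the 3169 rows, 574 were lower and 617 higher at that p. Among the 844 other faint rows it was 275 lower and 13 higher. Since the rule favoured rows that were higher in November, the shared direction of the members is not independent support for a change by month. December had 1 batch of pool10, so its spread was taken to be that of the other groups.

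That count depends on the model, while the members' median was below 0, the direction the rule favoured, in each fit run. DESeq2 called 73 members, all lower in December. Of 3176 rows it called 476 lower and 540 higher. With limma on single libraries and the batch as a random effect, 106 members were called, all lower. Of 3108 rows it called 618 lower and 515 higher. With the batch number as a replicate block, 0 members and 19 rows were called. In pool10 no batch number occurs in both months. Without pool10 batch 2 of November, 0 members and 20 rows of the table were called, and the median of the members was -2.51. With library totals in place of TMM, a setting chosen after seeing the data, 58 members were called, the median over all rows became -0.89 and that of the members -4.01, and 79 rows were called higher and 891 lower. The members' median lay 3.09 log2 units below that of all rows with TMM and 3.12 below it with library totals.

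**Figure D3:**
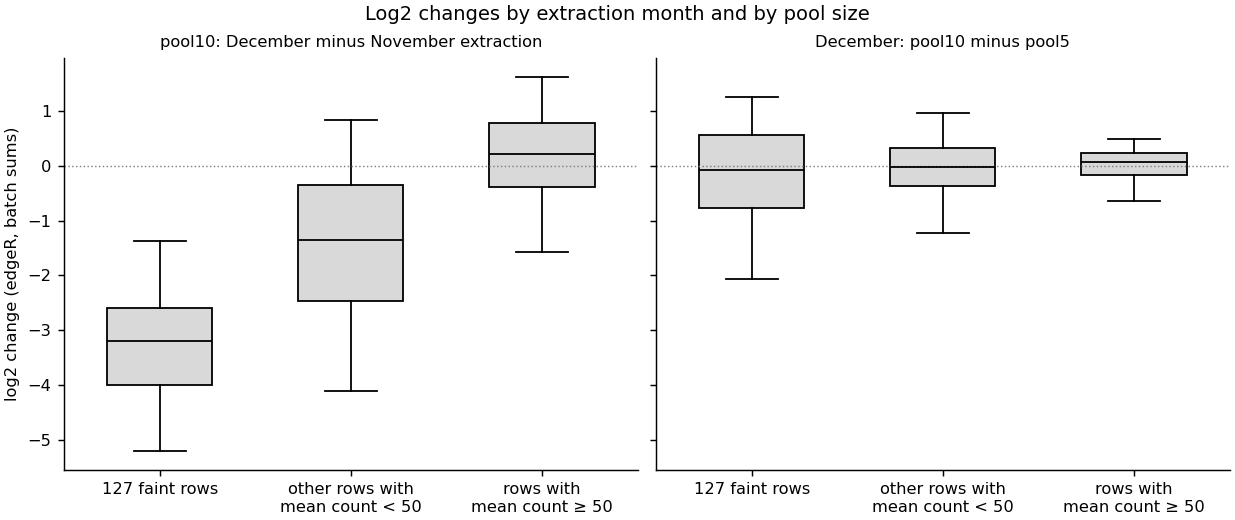
Boxes show the quartiles and median of the fitted log2 change, and whiskers reach the 5th and 95th percentiles, for the 127 faint rows, the other rows with a mean count below 50 and the rows with a mean of at least 50, in December minus November pool10 (left) and pool10 minus pool5 of December (right). The faint rows have a median of -3.19 on the left and of -0.07 on the right.

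Single libraries of pool10 were also compared without a model. The 8 December libraries are 1 extraction batch and the rule favoured rows higher in November, so this is not independent support. For 70 of the 127 members, 55.1%, every pool10 library of December was below every one of November in CPM, against 35.5% of all rows with counts there. With TMM scaling it was so for 51 members, 40.2%, against 16.1% of rows. No member had every December library above every November library, while 147 rows had under CPM and 480 under TMM scaling. By detection, 41 members were detected in 0 of the 8 December libraries of pool10, 64 in 1 to 3 and 22 in at least 4. Of the 16 November libraries, all 127 members were detected in at least 12 and 79 members in every library. 126 of the 127 members were detected in a smaller share of December than of November libraries. Matching counts by detection over other rows are not given, so these are not particular to the members. The median share detected per pool10 library was lower in December for other faint rows too, 64.9% against 88.8%. For all rows it was 87.4% against 96.9%.

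The members called with the largest change had almost no counts in December. Row 2445 had 0 CPM in all but 1 of the 8 December libraries of pool10 and 0.228 CPM in that library. In the November libraries it was between 0.681 and 8.57 CPM, with a median of 3.65 CPM. The groups did not overlap, and the ratio of December to November summed CPM was 0.00730 (95% exact interval 0.000184 to 0.0410, from 1 count in December). Its log2 change was -6.16 ± 1.86 (SE), with an edgeR adjusted p of 0.0492. Row 1829 had 2 counts in December in all, at most 0.212 CPM in a library, against 1.81 to 15.6 CPM in November with a median of 5.92 CPM. The ratio was 0.00804 (95% exact interval 0.00097 to 0.0292) and the log2 change -6.07 ± 1.76 (SE, edgeR adjusted p = 0.0434). Row 1829 was also at the edge of the rule, with 18 pool20 libraries detected.

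Row 1360 was between 0 and 0.469 CPM in the December libraries of pool10, with a median of 0, and between 1.85 and 23.7 CPM in the November libraries, with a median of 7.16 CPM. It was detected in 0 of 8 December libraries and 16 of 16 November libraries, with a log2 change of -5.52 ± 1.44 (SE, edgeR adjusted p = 0.0312). In pool20 it had 0.410 to 2.46 CPM in December, with a median of 1.32 CPM, and 1.43 to 12.1 CPM in November, with a median of 4.93 CPM, so there the months overlapped. Row 2425 was between 0 and 0.472 CPM in December, with a median of 0.207 CPM, and between 2.53 and 18.9 CPM in November, with a median of 8.65 CPM. Its log2 change was -4.87 ± 1.28 (SE, edgeR adjusted p = 0.0322). Like row 1360, it had the largest possible difference in detection, as did rows 1819, 2882 and 1933, each detected in 0 of 8 December and 16 of 16 November libraries of pool10. Of the other 3, row 1933 was called (log2 change -4.44 ± 1.33 SE, edgeR adjusted p = 0.0487), and rows 1819 and 2882 were not, with log2 changes of -4.24 and -4.80 and adjusted p of 0.0701 and 0.108.

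The members with the highest level in pool10 had counts in December too. Row 1435, the most abundant, was between 0.236 and 3.60 CPM in the December libraries of pool10, with a median of 2.27 CPM. In November it was between 13.4 and 65.5 CPM, with a median of 31.6 CPM. Its lowest November library was far above its highest December library, and the log2 change was -3.32 ± 0.81 (SE, edgeR adjusted p = 0.0257). On 24 November it averaged 44.4 ± 15.2 CPM and on 23 November 24.8 ± 7.78 CPM (SD, n = 8 each). Row 1752 was between 0.235 and 2.61 CPM in December and between 14.5 and 55.2 CPM in November, with a log2 change of -3.69 ± 1.06 (SE, edgeR adjusted p = 0.0420). Row 1290 was between 0 and 1.90 CPM in December and between 10.3 and 58.03 CPM in November, with a log2 change of -4.02 ± 0.93 (SE, edgeR adjusted p = 0.0229). Both were fully separated between the months. Row 1517 was between 0.236 and 5.71 CPM in December, with a median of 1.03 CPM, and between 4.08 and 61.02 CPM in November, with a median of 17.0 CPM. Its months overlapped in single libraries, and the batch sums gave a log2 change of -2.96 ± 0.71 (SE, edgeR adjusted p = 0.0252). Row 1731, named for its p in a later comparison, was between 0 and 0.939 CPM in December and between 3.79 and 19.2 CPM in November, with a log2 change of -4.24 ± 0.90 (SE, edgeR adjusted p = 0.0186). The 20 called members had a median level of 7.37 CPM in pool10, against 4.30 CPM for those not called, and their log2 changes were between -6.16 and -2.81.

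A few members had small fitted changes by month with TMM scaling. Row 2836 was between 0.236 and 2.84 CPM in the December libraries of pool10, with a median of 1.67 CPM, and between 0.361 and 8.45 CPM in the November libraries, with a median of 3.299 CPM. It was detected in 7 of 8 December and 12 of 16 November libraries, the only member with a larger share in December. Its log2 change was -0.31 ± 1.43 (SE, edgeR adjusted p = 0.887), and without pool10 batch 2 it was 0.10. Row 2625 was between 0.236 and 3.42 CPM in December and between 0.542 and 9.83 CPM in November, with a log2 change of -0.47 ± 1.01 (SE, edgeR adjusted p = 0.746). Row 2997, among the least abundant in pool10, was between 0 and 1.62 CPM in December and between 0.421 and 3.87 CPM in November, with a log2 change of -0.59 ± 1.25 (SE, edgeR adjusted p = 0.744). For all 3 the months overlapped, and the standard errors are larger than the changes fitted with TMM scaling. With library totals, the ratios of December to November summed CPM were 0.463 for row 2836, 0.4155 for row 2625 and 0.383 for row 2997. Their 95% exact intervals, which cover counting error only, were 0.344 to 0.615, 0.315 to 0.541 and 0.244 to 0.581. Rows 1884 and 771, the others of the least abundant, had log2 changes of -3.49 and -3.01 with adjusted p of 0.184 and 0.242, while row 3097 was called at -4.60 ± 1.25 (SE, edgeR adjusted p = 0.0343) from 2 counts in December.

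**Figure D4:**
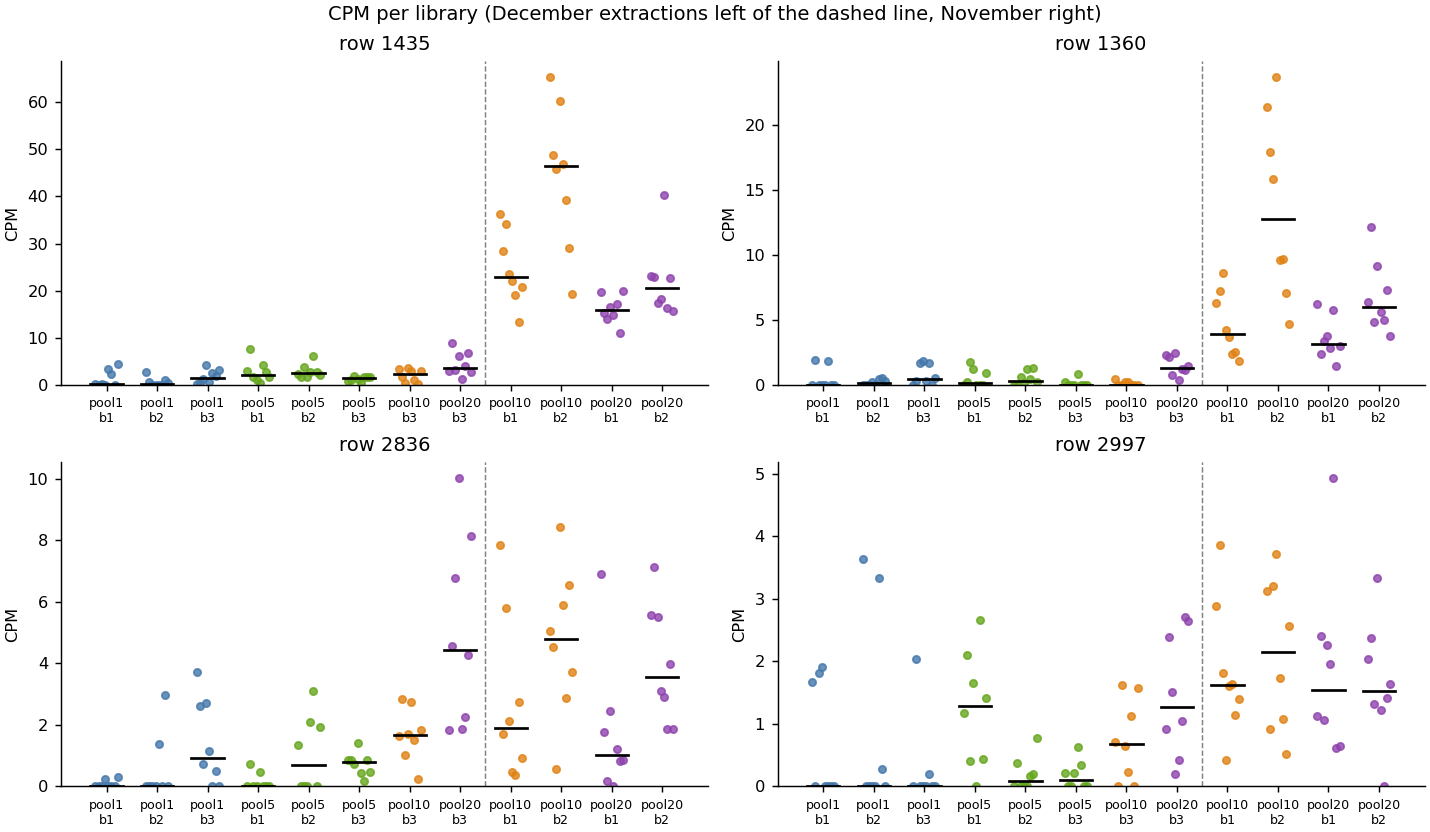
Each point is the CPM of a row in 1 library, by pool size and batch, each bar is the median of 8 libraries, and the dashed line parts December batches (left) from November batches (right). Rows 1435 and 1360 are separated by month in pool10, while rows 2836 and 2997 overlap.

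Whether the members differ by pool size within December was tested for pool10 against pool5, neither of which entered the rule other than through the overall mean. Exposures began 1 day apart. The same edgeR fit called 0 of 3169 rows, 0.00%, and 0 of the 127 members. At an unadjusted p below 0.05 there were 9 rows and 1 member, and DESeq2 and limma also called 0 rows. With no change a share of about 0.05 of the rows would reach that p, so the edgeR fit was conservative here. Leaving out 1 batch at a time gave 2 to 117 rows at that p, the most without pool5 batch 3. That 0 rows were called therefore does not show that the pool sizes are alike. The members' median log2 change was -0.07, with the middle of the members between -0.77 and 0.57, 58 above and 69 below 0. The median over all rows was 0.05. In CPM, 0 members and 0 rows, 0.00%, were without overlap between the libraries of pool10 and pool5. The median standard error of a member was 1.14 log2 units, so single members could differ by a large factor without being called. In other fits the members' median ran from -0.48, with the replicate block, to 0.13, without pool5 batch 1. Between batches of a group, the SD of the members' median log2 CPM was 0.65, and December had 1 batch of pool10. A shared shift of about that size thus cannot be told from the spread between batches.

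The 3 members with the smallest p in that comparison were not called. Row 3097 was between 0 and 0.373 CPM in the pool10 libraries of December and between 0 and 1.82 CPM in pool5, with a log2 change of -2.69 ± 1.17 (SE, unadjusted p = 0.0436, edgeR adjusted p = 0.997). Rows 1241 and 1731 had log2 changes of -2.61 ± 1.35 and -1.46 ± 0.77 (SE, edgeR adjusted p = 0.997 for both). The pool10 libraries of all 3 lay within the range of pool5. The 4 members seen most in pool5 were rows 1435 and 775, in 21 of 24 libraries, and rows 1752 and 88, in 20 of 24. In the December libraries of pool10 rows 1435 and 775 were detected in 6 of 8 and rows 1752 and 88 in 5 of 8. Row 775 was between 0 and 2.73 CPM in pool10, with a median of 1.33 CPM, and between 0.503 and 3.79 CPM in pool5, with a median of 1.62 CPM, with a log2 change of -0.13 ± 0.59 (SE, edgeR adjusted p = 0.997). Most members were rare in pool5, detected in a median of 5 of its 24 libraries and in at least 18 for only 4 members.

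Other comparisons used pool1 or pool20 values and are given without a test. From the same fit, the members' median log2 change was 0.21 for pool5 against pool1 in December, with 80 of 127 higher in pool5. It was 1.62 for pool20 against pool10 in December, with 123 higher in pool20, where the pool20 embryos came from the November exposure. It was -0.43 for pool20 against pool10 in November, with 115 lower in pool20, and -1.15 for December against November in pool20, with 120 lower in December. The mean CPM of 123 members in the December batch of pool20 lay between that in the December batch of pool10 and that in pool20 of November. The fitted change by month was more negative in pool10 than in pool20 for 126 members, with a median difference of -2.02 on the log2 scale. Most of the 844 other faint rows tested had the same directions, except that 326 were higher and 517 lower in pool5 than in pool1. Against pool10, 625 were higher in pool20 in December and 642 lower in November. By month, 671 were lower in December in pool20, and 661 had a more negative change in pool10 than in pool20.

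Within November, both pool10 batches came from the same exposure and were extracted 1 day apart. The comparison was chosen after seeing the data. The 16 libraries were tested singly with edgeR, and since each day holds 1 batch, day and batch cannot be told apart. 123 members passed the filter on low counts, of which 92 were called higher on 24 than on 23 November and 0 lower. Over 3037 rows, 837 were called higher, 27.6%, and 551 lower, 18.1%. Of 717 other faint rows tested, 378 were called higher, 52.7%, and 11 lower, with a median log2 change of 0.65. The members' median log2 change was 1.01. Without libraries 5 to 8 of batch 1, 36 of 127 members and 359 of 3089 rows were called higher, and the members' median was 0.68. That fit kept libraries 5 to 8 of batch 2, which were also lower than its libraries 1 to 4, so the batches were not cut alike. Libraries 1 to 4 had a median summed level of 836 CPM in batch 1 and 1644 CPM in batch 2.

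Rows that missed the rule by a single condition had fitted changes of the same direction for the most part. They met its other conditions, so their direction is not independent support. Lower fitted levels in December were found for 702 of the 844 other faint rows tested, which include these rows, and for 1723 of all 3169 rows. The 227 rows that failed only on the highest pool1 count had a median log2 change of -2.37 for December against November in pool10, with 217 lower in December, and of -0.08 for pool10 against pool5. A median of 115 of them were detected per December library of pool10 and 223 per November library. The 110 tested rows that failed only on pool20 detection had a median change by month of -2.85, with 100 lower in December, and of 0.06 by pool size. A median of 6.5 were detected per December library and 57 per November library.

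Libraries of a batch varied by more than counting error for most members. Over members with a mean of at least 1 count in a batch, the median ratio of variance to mean, which is 1 for counting error alone, was 8.67, 8.36 and 4.99 in the pool1 batches. It was 3.89, 3.59 and 2.40 in the pool5 batches and 2.74 in the pool10 batch of December. In the November batches of pool10, where the levels were higher, it was 4.75 and 7.50. The sets of members differ, since 67, 67 and 116 members reached that mean in the pool1 batches, whose values entered the rule, 112, 121 and 76 in the pool5 batches, 96 in the pool10 batch of December and 127 in each of those of November. The most single embryos in which a member was detected was 12 of 24, 40 members were detected in at least 6, and 3 members in 0 of 24. The rule's limit on the pool1 median allows no more than 12 of 24, so that maximum was set by the rule.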

How the data were processed

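The values the authors deposited are raw counts of reads, whole and not normalized, for 3183 rows and 96 libraries. Per the submitters' processing notes, processing named DESeq2 1.31.15, RSEM 1.3.3, STAR 2.7.10a, fastp 0.23.2 and bcl2fastq 2.20 (genome build, annotation and counting step not given in the sources used here). Members and comparisons were chosen with earlier results of these data known. Batch sums were tested in R 4.3.3 with the quasi-likelihood test of edgeR 4.0.16 with TMM scaling after filtering low counts by its default, and with Benjamini-Hochberg adjustment over all rows tested and a threshold of 0.05. The standard error of a log2 change in edgeR was taken as its absolute value divided by the square root of the F statistic of the test. It was not estimated apart from that test. CPM used library totals. Intervals of ratios from few counts are exact binomial ones at 95%. The fits were tested on simulated data of the 2 main comparisons, with 200 changed rows each and a dispersion of 0.105 for all rows. For month, 1% of 2-fold and 55% of 4-fold changes were recovered, with 0 and 7 false calls. For pool size it was 2.5% and 70%, with 0 and 12 false calls. A 2-fold change would thus mostly have been missed. The changed rows were drawn from rows of all levels, so these shares do not hold for the members alone, which are faint. The median standard error of a member was 1.35 log2 units for month and 1.14 for pool size. Alternatives were DESeq2 1.42.0, its size factors in edgeR, other filters, single libraries in edgeR or in limma 3.58.1 with the batch as a random effect, exposure month, a replicate block, left-out batches, library totals, and other limits of the rule. As a check of pairing, deviations of same-numbered batches from the mean of their pool size were correlated. The correlations were 0.495 to 0.831 between pool10 and pool20, 0.304 to 0.587 between pool10 and pool5, and -0.336 to 0.235 between pool1 and the others. Per the labels, batches 1 and 2 of pool10 and pool20 share extraction days, while their batches 3 were extracted on 18 and 15 December. Batches of different numbers were not correlated, so the check cannot show whether batches pair by number. Named rows were those with the largest called changes or, where none was called, the smallest p, the highest and lowest mean in pool10, the most and least changed in detection, the most detected in pool5, and those nearest the limits. No probe sequence is printed, since rows could not be matched to probes.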

Additional observations from a re-analysis of the deposited data

Results flagged for a closer look

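Summed level and number of detected members were screened in each of the 12 batches, 24 sets of 8 libraries, for a lowest or highest library whose gap to the next, divided by the range of the batch, was above 0.526. Chance flags about 1 in 20 such sets, and 2 were found. In pool20 batch 2 of 24 November, library 8 had 116 members detected, the next lowest 124. In pool20 batch 1 of 23 November, library 1 had 597.9 CPM summed over the members, the next highest 508.7 CPM.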

How the results depend on the processing

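For December against November in pool10, 497 of 3169 rows and 20 of 127 members were called. The other fits of this comparison named here tested 3065 to 3176 rows. The fit of single libraries in edgeR had no batch term. It took the 8 libraries of a batch as replicates of a month, which they are not, so its counts overstate the evidence. The counts of rows and members were 1016 and 73 with DESeq2, 2185 and 121 with single libraries in edgeR, 1133 and 106 with limma, 898 and 37 without samples 5 to 8 of the batches numbered 1, 970 and 58 with library totals (median of the members -4.01), and 816 and 64 with pool5 and pool10 batches alone, these last 2 settings chosen after seeing the data. With the batch number as a replicate block they were 19 and 0, and it changed no call in pool10 against pool5. Leaving out 1 batch at a time gave 20 to 801 rows, 0 to 52 members and medians of -3.65 to -2.51. The counts moved by over 1.5 times without pool1 batch 1 (801 and 43), pool1 batch 3 (783 and 52), pool5 batch 2 (269 and 10), pool20 batch 1 or 2 (11 members each) and pool10 batch 2 (20 and 0). All these medians were below 0, the direction the rule favoured. The cause of the changes in count was not tested. The log2 change of row 2997 was 1.03 under the replicate block, and that of row 2836 ran from -0.61 to 0.10 with 1 batch left out, the highest without pool10 batch 2. For pool10 against pool5, single libraries in edgeR, again with no batch term, called 49 rows and 0 members, and the other fits 0. For 24 against 23 November, 36 of 127 members and 359 of 3089 rows were called higher without samples 5 to 8 of batch 1, those of batch 2 being kept. The rule gave 83 members with 21 of 24 pool20 libraries and 57 with at least 10 counts. On counts scaled to the smallest library it gave 135, of which 84 are among the 127, with 23 called and a median of -2.99 by month. At 3 counts the median number detected was 52.5 in pool5 and 48 in December pool10. At 10 counts it was 12 for pool5, 6 for pool10 and 52 for pool20 of December, and 115 for pool10 and 99 for pool20 of November. Scaled to the smallest library it was 15.5, 14.5 and 65 in these December groups and 113.5 in November pool20. In the median December library of pool1, pool5 or pool10, most members had fewer than 5 counts, which limits the precision of their levels.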

Other observations

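The position of a library within its plate column went with the level of the members in some batches, a pattern chosen after the data were seen and given without a test. In 3 of the 12 batches every library of plate rows E to H had a lower summed level than every library of rows A to D. In 1 batch, pool5 batch 2, the order was reversed, with 91.3 to 139 CPM in rows E to H and 67.2 to 86.8 CPM in rows A to D. In pool10 batch 1 these were 477 to 566 CPM in rows E to H and 659 to 996 CPM in rows A to D. In pool10 batch 2 they were 786 to 1278 CPM and 1411 to 2092 CPM, and in pool20 batch 2 they were 520 to 873 CPM and 923 to 993 CPM, in the same order of rows. In pool20 batch 1, also of November, rows E to H had 464 to 509 CPM and rows A to D 449 to 598 CPM, and in the pool10 batch of December 47.9 to 74.5 CPM and 72.7 to 87.4 CPM, so these overlapped. The part of plate position in the change by month was not tested.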
